A study of Mus musculus with 36 samples.

Results

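A set of 9 genes of retinoic acid metabolism and response was followed in the developing mouse gonad. They are 9 of the 21699 genes in the count tables, listed by symbol with earlier results of these data known. Counts of called genes among them are therefore descriptions. The set holds Aldh1a1, Aldh1a2 and Aldh1a3 for synthesis, Cyp26a1 and Cyp26b1 for breakdown, Crabp1 and Crabp2 for binding inside the cell, Stra6 for uptake and Rarb as receptor. RNA-seq covered 4 genotypes, namely XY control, XY KO, XX control and XX KO, at the embryonic days E11.5 and E12.5, with 3 libraries in each of the 8 groups. KO embryos carried the Tg(CAG-cre)1Nagy transgene and were del/del for miR-17~92. Both copies of this microRNA cluster were thus removed by a Cre recombinase under the CAG promoter, which is active in nearly all cells, so the loss was not limited to the gonad. The floxed allele came from a C57BL/6 × 129S4/SvJae background. The controls are labelled WT, and the Cre and floxed alleles that they carried are not given in the sources used here. Each library pooled 2 pairs of gonads. At E11.5 the tissue was the gonad together with the mesonephros, the transient kidney beside it, and at E12.5 the gonad alone. Tissue and library kit both differ between the stages, so levels of E11.5 and E12.5 are set side by side here and not compared.

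Retinoic acid is made from vitamin A. STRA6 takes retinol up into the cell, retinol is oxidised to retinal, and the retinaldehyde dehydrogenases ALDH1A1, ALDH1A2 and ALDH1A3 turn retinal into retinoic acid. CRABP1 and CRABP2 bind it in the cytoplasm, the retinoic acid receptors (RARB among them) act on genes when bound by it, and the cytochrome P450 enzymes CYP26A1 and CYP26B1 degrade it. In the fetal gonad, retinoic acid from the mesonephros and the ovary is associated with the entry of germ cells into meiosis, whereas CYP26B1 in the somatic cells of the fetal testis keeps it low.

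The 6 mature microRNAs of the deleted cluster belong to 4 families that share a seed, the bases 2 to 8 that pair with target messages. They are shown because the KO removes all of them, with the seed in capitals (RefSeq, GRCm38.p6, chromosome 14, plus strand, from 115043684 for miR-17-5p to 115044496 for miR-92a-3p).
miR-17-5p: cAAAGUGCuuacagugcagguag
miR-20a-5p: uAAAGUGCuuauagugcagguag
miR-18a-5p: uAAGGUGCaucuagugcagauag
miR-19a-3p: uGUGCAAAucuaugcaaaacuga
miR-19b-3p: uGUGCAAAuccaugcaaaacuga
miR-92a-3p: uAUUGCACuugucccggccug
miR-17-5p and miR-20a-5p share 1 seed, and miR-19a-3p and miR-19b-3p share another. A match to the whole seed was searched on the sense strand in 1 annotated 3′ UTR for each gene: GCACTTT for miR-17 and miR-20a, GCACCTT for miR-18a, TTTGCAC for both miR-19 forms and GTGCAAT for miR-92a. Of the 9 genes, Cyp26b1 had a match, 1 for miR-17 and miR-20a, and the other 8 had none for any family. Across 14021 tested genes with a 3′ UTR, 14.01% held a match to the miR-17 seed, 9.2% to the miR-18 seed, 12.97% to the miR-19 seed and 7.631% to the miR-92 seed, and 33.02% held at least 1. The match in Cyp26b1 begins 2377 bases after the stop codon in a 3′ UTR of 2853 bases, at chr6:84571876-84571898 on the minus strand (GRCm38), and is printed with the seed match in capitals.
Cyp26b1 3′ UTR site: agattgaaGCACTTTcaaagtta
A match is a description of the sequence and not a measured site of action. The UTR of Cyp26b1 is longer than the median of 1150 bases over those genes, and longer UTRs offer more places for a match.

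Retinoic acid receptors bind pairs of short core motifs in the same orientation. Promoter windows of 300 bases (250 before to 50 after the RefSeq start, GRCm38.p6) were given for 7 of the 9 genes, 11 windows in all. They were searched on both strands for a core of AGGTCA or GGGTCA, or of AGTTCA or GGTTCA, that is followed by another such core after 1, 2 or 5 bases. Only Cyp26a1 and Rarb held a pair, in each case with 5 bases between the cores, at chr19:37697776-37697792 on the strand opposite to the gene (first base 32 bases before the start) and at chr14:16575513-16575529 on the gene's own strand (first base 53 bases before the start). They are printed 5′ to 3′ along the strand of the repeat, cores in capitals.
Cyp26a1: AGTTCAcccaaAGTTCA
Rarb: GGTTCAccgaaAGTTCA
Pairs with this spacing stood in 0.0974% of 32851 RefSeq promoters, against 0.222% for a spacing of 1 and 0.268% for a spacing of 2. Aldh1a3 and Crabp2 were not searched.

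The libraries held 17150620 to 34077443 counted read pairs at E11.5 and 11877379 to 44155275 at E12.5. Levels below are CPM, that is, counts scaled to a common library total with TMM factors. Testing was limited to genes at 1 CPM or more in 2 or more of a stage's 12 libraries, leaving 14217 genes for E11.5 and 14348 for E12.5. The deletion was checked first. Mir17hg, the host transcript of the cluster, had higher levels in the KO gonads at both stages (17.6 to 44.6 CPM in the 6 control libraries and 98.2 to 154 CPM in the 6 KO libraries at E11.5), but most of its length lies outside the deleted microRNAs and its total therefore checks nothing. The 6 hairpin genes of the cluster, which lie within the deleted part, had 2 to 17 counts in sum in each of the 12 control libraries and 0 in 11 of the 12 KO libraries. The exception was XY KO replicate 2 at E11.5, with 4, so the calls of the 9 genes at E11.5 that rest on XY KO are also given without it. Markers of the somatic gonad (Gata4, Nr5a1, Wt1 and 3 others) were present in every group, with summed levels of 1017 to 1451 CPM at E11.5 and 1431 to 2068 CPM at E12.5.

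Of the 9 genes, 8 could be tested at each stage. A gene was called at an adjusted p below 0.05 (edgeR quasi-likelihood test, Benjamini-Hochberg over all tested genes). At E11.5, XY KO differed from XY control in 4 of the 8 genes, with 12.7% of all tested genes called. Of the 8, 1 was higher and 3 were lower (5.88% and 6.81% of all tested genes). XX and XY controls differed in 1 gene at that stage, lower in XX control (0.886% of all tested genes, and 0.528% lower), XX KO and XX control in 0 (3.27%), and XX KO and XY KO in 0 (0.0844%). Without adjustment, edgeR's p was below 0.05 for 3 of the 8 genes between XX KO and XX control (15.7% of all tested genes) and for 2 between XX KO and XY KO (16.1%). DESeq2, an alternative count test, called 0 and 1 of the 8 in these comparisons. At E12.5 the controls of the 2 sexes differed in 4 of the 8 genes, 2 in each direction (23.8% of all tested genes, 11.4% higher and 12.4% lower in XX control), and XY KO differed from XY control in 5, with 3 higher and 2 lower (20.6%, and 10.3% in each direction). XX KO and XX control again differed in 0 (5.26%), as did XX KO and XY KO (0.153%). Unadjusted p was below 0.05 for 2 of the 8 genes in the former (23.6% of all tested genes) and for 4 in the latter (19.2%), and DESeq2 called 0 and 1. Both contrasts with XY control share those 3 libraries, so their values are given side by side. The 8 genes are shown together in the plot of log2 differences.

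**Figure D1:**
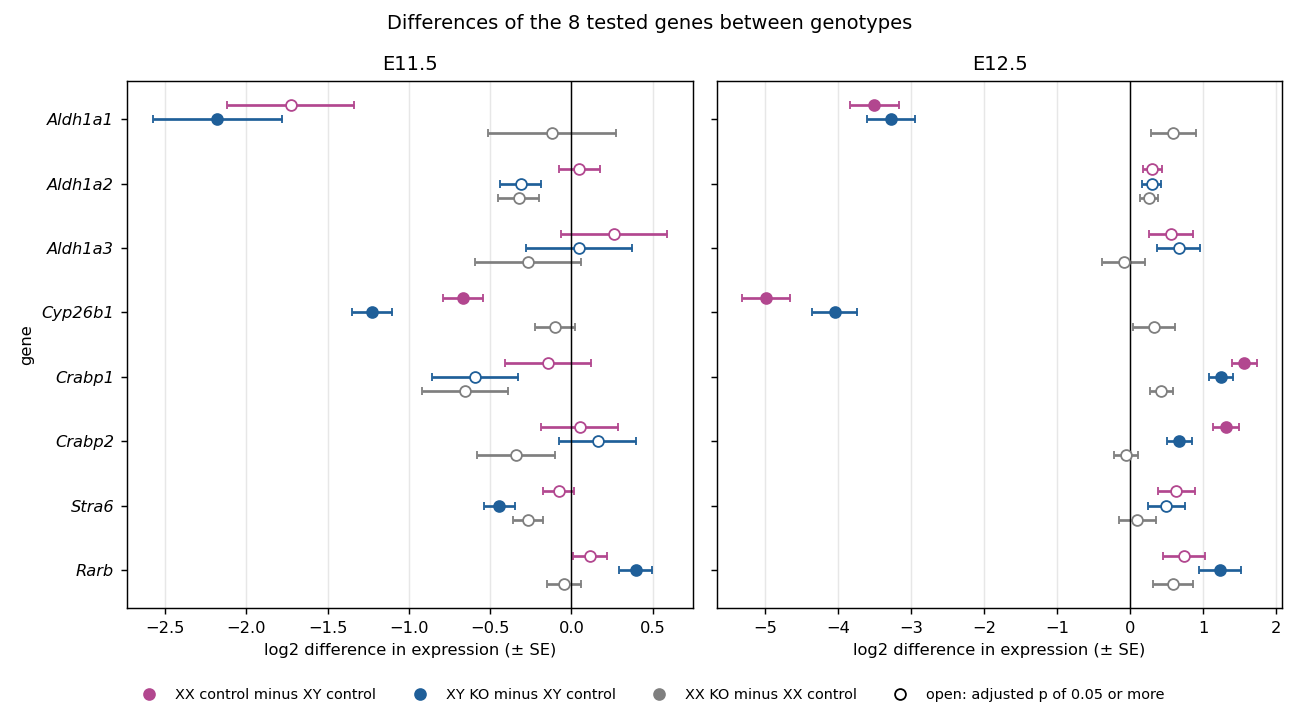
Log2 difference in expression (x axis, with its standard error) of the 8 tested genes (y axis) for XX control minus XY control, XY KO minus XY control and XX KO minus XX control at E11.5 (left) and E12.5 (right), each group 3 libraries. Filled points have an adjusted p below 0.05. At E12.5 Cyp26b1 lies at -4.99 and -4.05 in the contrasts with XY control, and no point of XX KO minus XX control is filled at either stage.

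The largest differences were in breakdown. Cyp26b1 (ENSMUSG00000063415, chr6:84571414-84593908, minus strand) was at 356, 371 and 300 CPM in the 3 XY control libraries of E12.5. It was at 13.1, 8.68 and 10.501 CPM in XX control, at 8.41, 17.9 and 14.1 CPM in XX KO and at 12, 21.9 and 27.8 CPM in XY KO. Every XY control library thus lay more than 10 times above every library of the other 3 genotypes. The fitted level in XY KO was 16.5-fold lower than in XY control (log2 difference -4.05, SE 0.31, n = 3 against 3, edgeR adjusted p = 4.14e-07). The XX control was 31.8-fold lower than the XY control (-4.99, SE 0.32, adjusted p = 7.02e-08). XX KO and XX control overlapped (0.33, SE 0.29, adjusted p = 0.511). XY KO had a higher mean than XX KO (20.5 ± 7.98 against 13.5 ± 4.76 CPM, SD, n = 3), but the libraries overlapped and the difference did not pass (XX KO minus XY KO -0.61, SE 0.28, adjusted p = 0.257). The effect of the deletion differed between the sexes: the interaction, the KO effect in XY minus that in XX gonads, was -4.37 (SE 0.41, adjusted p = 7.91e-06), and 3 of the 8 genes were called in that test against 12.9% of all tested genes, 1 higher (5.9%) and 2 lower (7.05%).

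At E11.5 Cyp26b1 also differed between genotypes. It was at 80.8, 110 and 108 CPM in XY control, 66.1, 65 and 57.2 CPM in XX control, 59.9, 51.9 and 63.6 CPM in XX KO and 46, 42.2 and 39.2 CPM in XY KO. All XY control libraries lay above all others, and all XY KO libraries lay below all others. Every XX control library was below every XY control library for 8.45% of all tested genes. The share with the whole pattern was not counted. XY KO was 2.35-fold lower than XY control (-1.23, SE 0.12, adjusted p = 3.49e-05, and -1.23 with adjusted p = 0.000555 without XY KO replicate 2). XX control was 1.59-fold lower than XY control (-0.67, SE 0.12, adjusted p = 0.0116), a call that was lost without XX control replicate 3 (adjusted p = 0.0952) or without XY control replicate 3 (0.0796). XX KO did not differ from XX control beyond the spread (-0.10, SE 0.12, adjusted p = 0.799). XX KO lay above XY KO in every library, as did 12.7% of all tested genes, but the difference did not pass in edgeR (0.46, SE 0.12, adjusted p = 0.155). DESeq2 did call it (0.46, adjusted p = 0.0374). The interaction was -1.13 (SE 0.17, adjusted p = 0.0215). Cyp26b1 was 1 of 5 genes, 0.0352% of those tested (0.0281% lower), called in the interaction at this stage. The number of genes called in it was itself unstable, at 40 without XY control replicate 1 and 228 without XY control replicate 2. The Cyp26b1 call was lost when any of 8 of the 12 libraries was left out, among them XY KO replicate 2 (-1.12, adjusted p = 0.0737), with an adjusted p of up to 0.125 (without XX KO replicate 3), although the value stayed between -1.26 and -1.04 in all alternatives.

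Cyp26a1 (ENSMUSG00000024987, chr19:37697798-37701536, plus strand), the other degrading enzyme, was too low to be tested. Its counts were 7 to 15 in XX control, 9 to 22 in XY control, 3 to 6 in XX KO and 2 to 13 in XY KO at E11.5. At E12.5 they were 1 to 5 in XX control, 0 to 4 in XY control, 1 to 5 in XX KO and 1 to 13 in XY KO. The highest level of any library was 1.01 CPM, in an XY control library at E11.5, so differences of Cyp26a1 were not detectable at this depth. Its promoter and that of Rarb hold the core pairs printed above.

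**Figure D2:**
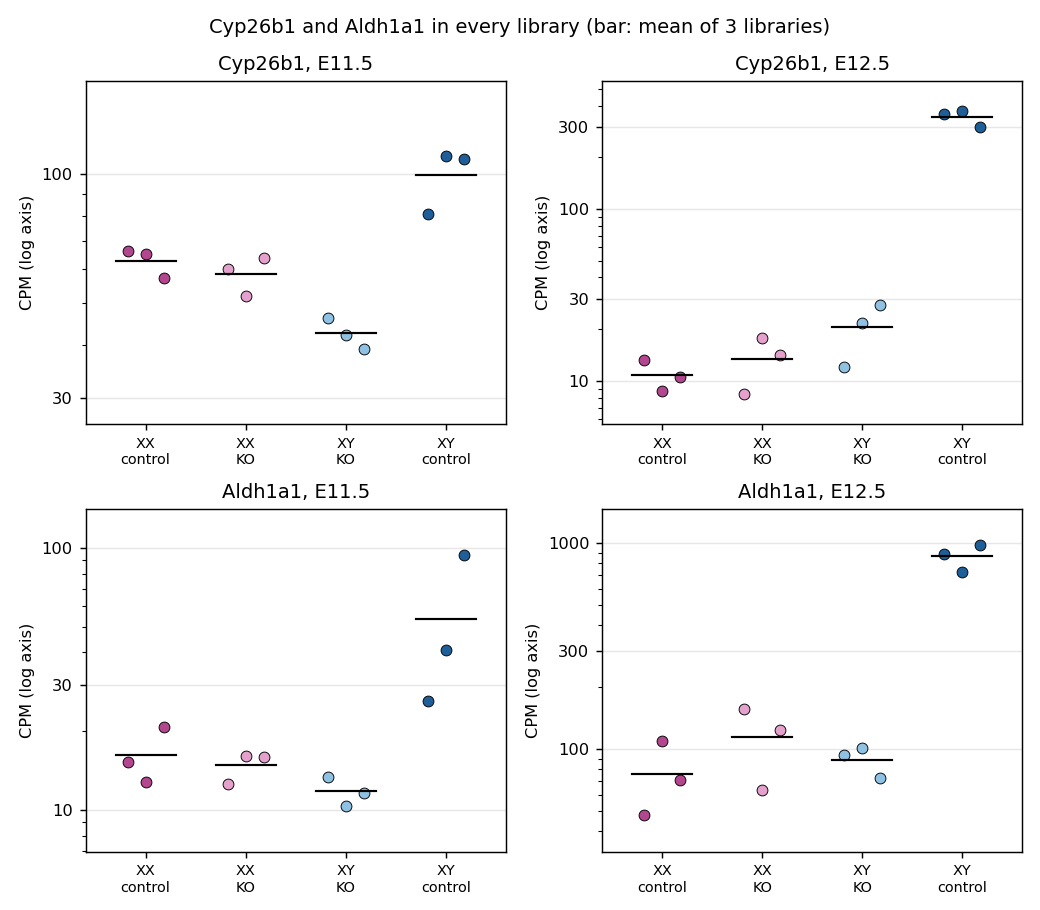
CPM (y axis, logarithmic) of Cyp26b1 (top) and Aldh1a1 (bottom) in each library (points) of the 4 genotypes (x axis) at E11.5 (left) and E12.5 (right); the bar is the mean of 3 libraries. At E12.5 the 3 XY control libraries lie between 300 and 371 CPM for Cyp26b1 and between 728 and 981 CPM for Aldh1a1, above all libraries of the other genotypes.

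Of the synthesis enzymes, Aldh1a1 moved with Cyp26b1 while Aldh1a2 and Aldh1a3 did not pass in any comparison with TMM factors and all 12 libraries of a stage. Aldh1a1 (ENSMUSG00000053279, chr19:20492715-20643465, plus strand) was at 885, 728 and 981 CPM in XY control at E12.5, against 47.7, 110 and 70.8 CPM in XX control, 158, 63.3 and 124 CPM in XX KO and 93.4, 101 and 72.9 CPM in XY KO. The XY control libraries stood apart, and the other 3 genotypes overlapped one another. XY KO was 9.7-fold lower than XY control (-3.28, SE 0.33, adjusted p = 6.6e-06) and XX control 11.3-fold lower (-3.50, SE 0.34, adjusted p = 2.95e-06). XX KO did not differ beyond the spread from XX control (0.59, SE 0.31, adjusted p = 0.263) or from XY KO (0.37, SE 0.31, adjusted p = 0.492). Without XX KO replicate 2, however, the difference from XX control passed narrowly in edgeR (0.89, adjusted p = 0.0499). The interaction was -3.87 (SE 0.45, adjusted p = 4.61e-05).

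At E11.5 Aldh1a1 was at 26, 40.7 and 94.2 CPM in XY control, and in the other 9 libraries at 10.4 to 20.8 CPM. The 3 XY control libraries were all higher than the rest but spread widely. XY KO, at 13.3, 10.4 and 11.6 CPM, was 4.53-fold lower than XY control (-2.18, SE 0.40, adjusted p = 0.00666). Without XY control replicate 3, the library at 94.2 CPM, the difference was -1.50 (adjusted p = 0.00173), and without XY KO replicate 2 it was -2.10 (adjusted p = 0.0335). XX control was below XY control in every library, as were 8.45% of all tested genes, with a difference of -1.73 that did not pass (SE 0.39, adjusted p = 0.078). It did pass without XY control replicate 1 (-2.05, adjusted p = 0.00496) or replicate 2 (-1.89, adjusted p = 0.0263), and with DESeq2 (-1.71, adjusted p = 0.00658). Aldh1a7, a near-identical copy of Aldh1a1 with which reads may be shared, had lower counts but differed in the same direction: at E12.5 it was at 74.3 to 105 CPM in XY control and at 22.2 to 30.6 CPM in XY KO (-1.73, SE 0.21, adjusted p = 3.65e-05), and at E11.5 at 7.72 to 10.2 and 3.43 to 4.96 CPM (-1.10, SE 0.21, adjusted p = 0.00419).

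Aldh1a2 (ENSMUSG00000013584, chr9:71215789-71296243, plus strand) was the most abundant of the 3 per length of annotated exon in every group but XY control at E12.5. At E11.5 it was at 231.6 ± 27.2 CPM per kb in XY control (SD, n = 3) and 239 ± 31.6 in XX control, where Aldh1a1 was at 10.9 ± 7.27 and 3.29 ± 0.828 CPM per kb. At E12.5 Aldh1a2 was at 67.7 ± 6.15 CPM per kb in XY control, below Aldh1a1 there (175 ± 25.9), and at 82.9 ± 4.79 CPM per kb in XY KO, above Aldh1a1 there (18.1 ± 2.98). In CPM, Aldh1a2 at E11.5 was at 467, 590 and 516 in XY control, 491, 624 and 512 in XX control, 381, 427 and 491 in XX KO and 458, 396 and 412 in XY KO. Both KO genotypes had a lower mean than their controls, with differences that did not pass (XY -0.31, SE 0.13, adjusted p = 0.112, and XX -0.32, SE 0.13, adjusted p = 0.201). At E12.5 the order was the opposite: 137, 159 and 164 CPM in XY control, 176, 190 and 197 in XY KO, 195, 161 and 212 in XX control and 206, 236 and 238 in XX KO. Every XY KO library was above every XY control library, as for 19.8% of all tested genes, and the difference did not pass (0.29, SE 0.13, adjusted p = 0.121). XX control minus XY control did not pass either. It did with library size only (0.38, adjusted p = 0.0413) and without XX control replicate 2 (0.41, adjusted p = 0.0394).

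Aldh1a3 (ENSMUSG00000015134, chr7:66390890-66427517, minus strand) was low and variable. It ranged over the 12 libraries from 14.7 to 42.5 CPM at E11.5, both ends of which were XY control libraries, and from 5.72 to 18.1 CPM at E12.5. The nearest to a call was XY KO minus XY control at E12.5 (0.67, SE 0.30, adjusted p = 0.134), with overlapping libraries.

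The summed Aldh1a level was set against the summed Cyp26 level within each library, both in CPM per kb. At E12.5 the ratio was 3.63, 3.15 and 4.86 in XY control. It was 38.1, 58.2 and 54.6 in XX control, 78.8, 35.5 and 49.2 in XX KO and 43.6, 25.2 and 19.7 in XY KO. Synthesis transcripts thus outnumbered breakdown transcripts in all 12 libraries, and by least in XY control, whose ratios lay below those of the other 9. The Aldh1a sum was itself highest in XY control (218.7 to 273 CPM per kb, against 95.8 to 132 in the other genotypes). The XY control ratio was low through a Cyp26 sum of 56.1 to 69.4 CPM per kb, against 1.59 to 5.37 elsewhere. At E11.5 the ratio was 13.8, 13.4 and 12.2 in XY control, 18.2, 23.1 and 21.7 in XX control, 15.5, 20.5 and 18.9 in XX KO and 24, 22.6 and 25.7 in XY KO, again lowest in the 3 XY control libraries. With 3 libraries against 3, an exact permutation test of a single value cannot give a two-sided p below 0.1, so the ratio is given as a description. It counts transcripts and not enzyme activity or retinoic acid.

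**Figure D3:**
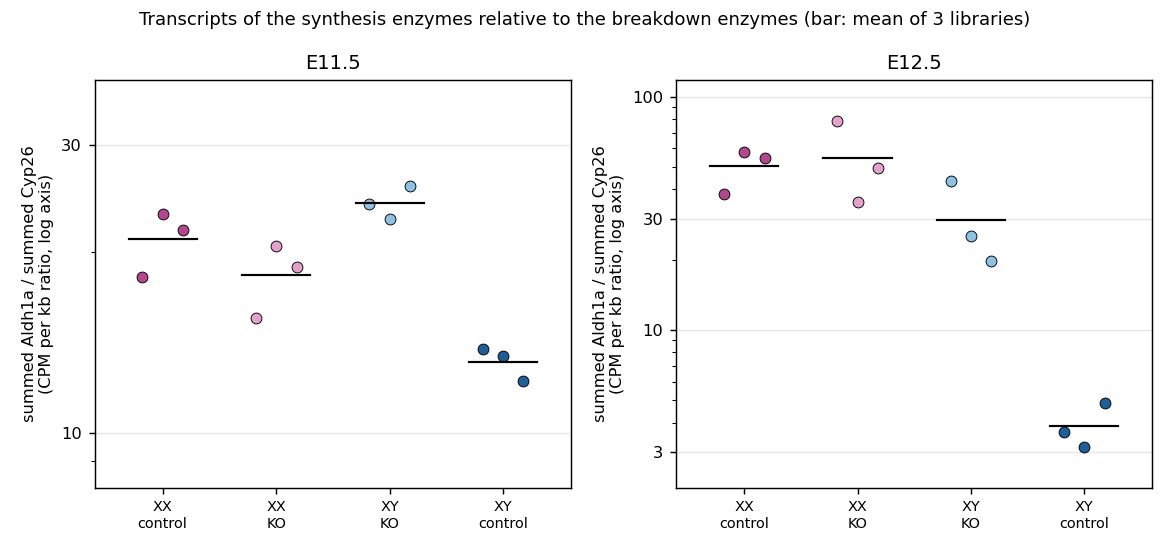
Ratio of the summed Aldh1a1, Aldh1a2 and Aldh1a3 level to the summed Cyp26a1 and Cyp26b1 level (CPM per kb of exon, y axis, logarithmic) in each library of the 4 genotypes (x axis) at E11.5 (left) and E12.5 (right); the bar is the mean of 3 libraries. The XY control libraries are lowest at both stages, at 12.2 to 13.8 at E11.5 and 3.15 to 4.86 at E12.5.

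The cytoplasmic binding proteins went the opposite way to Cyp26b1 at E12.5. Crabp1 (ENSMUSG00000032291, chr9:54764748-54773110, plus strand) was at 4.96, 5.85 and 4.08 CPM in XY control, 11.9, 12 and 11.8 CPM in XY KO, 13.5, 16.8 and 14.4 CPM in XX control and 22.3, 18.5 and 19.2 CPM in XX KO. The 4 genotypes did not overlap, in that order from lowest to highest. Every XY KO library was above every XY control library for 19.8% of all tested genes. The share with the full order was not counted. XY KO was 2.38-fold higher than XY control (1.25, SE 0.17, adjusted p = 8.4e-05), and XX control 2.96-fold higher (1.57, SE 0.17, adjusted p = 7.67e-06). XX KO minus XX control, the step at the top of the order, did not pass (0.43, SE 0.16, adjusted p = 0.122), and the step from XY KO to XX control was not fitted. XX KO minus XY KO did not pass either (0.75, SE 0.16, adjusted p = 0.156). It did without XX KO replicate 2 (0.80, adjusted p = 0.0183) and with DESeq2 (0.73, adjusted p = 0.00305). The interaction was 0.82 (SE 0.23, adjusted p = 0.0285) and was lost when 1 of 7 libraries was left out, at most to an adjusted p of 0.0837 (without XX control replicate 2).

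Crabp2 (ENSMUSG00000004885, chr3:87948666-87953376, plus strand), which passes retinoic acid on to its receptors, was at 6.53, 6.24 and 7.39 CPM in XY control at E12.5. It was at 9.29, 10.3 and 12.3 CPM in XY KO, 17.3, 14.3 and 18.4 CPM in XX control and 13.8, 16.4 and 17.6 CPM in XX KO. XY KO lay between the XY control and the XX genotypes, without overlap with either. Every XY KO library was above every XY control library for 19.8% of all tested genes. XX KO minus XY KO was not called, and the step from XY KO to XX control was not fitted. XY KO was 1.59-fold higher than XY control (0.67, SE 0.17, adjusted p = 0.0122), a call lost without XY control replicate 2 (adjusted p = 0.0566) or XY KO replicate 3 (0.0724). XX control was 2.49-fold higher than XY control (1.32, SE 0.17, adjusted p = 5.31e-05). The interaction, 0.73, did not pass (SE 0.24, adjusted p = 0.0573). It lay near the threshold and passed under some alternatives, among them DESeq2 (0.76, adjusted p = 0.024). Others were edgeR with library size only (0.77, adjusted p = 0.0497) and without XX control replicate 2 (0.83, adjusted p = 0.0493). At E11.5 neither gene was called. Crabp1 was at 130, 96.2 and 99 CPM in XY control and 78.9, 84.8 and 51.6 CPM in XY KO (-0.59, SE 0.26, adjusted p = 0.164), and at 92.7, 125 and 75.4 CPM in XX control and 71, 40.2 and 75.3 CPM in XX KO (-0.66, SE 0.26, adjusted p = 0.245). Crabp2 ranged from 45.5 to 105 CPM with all genotypes overlapping.

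Stra6 (ENSMUSG00000032327, chr9:58063788-58153996, plus strand), the membrane receptor for retinol, was lower in XY KO at E11.5. It was at 92.5, 104 and 105 CPM in XY control and 69.8, 71.8 and 79.9 CPM in XY KO, a 1.36-fold difference (-0.44, SE 0.09, adjusted p = 0.00719, and 0.0354 without XY KO replicate 2). XX KO, at 77.2, 72.8 and 86.3 CPM, was also below XX control, at 91.6, 102 and 91.3 CPM, in every library, as were 11.9% of all tested genes. That difference did not pass (-0.27, SE 0.09, adjusted p = 0.143), and the interaction gave no difference of the effect between the sexes beyond its error (-0.17, SE 0.13, adjusted p = 0.61). At E12.5 Stra6 ranged from 11.4 to 34.2 CPM and was not called (XY KO minus XY control 0.50, SE 0.26, adjusted p = 0.203). XX control minus XY control was 0.64. It passed without XY control replicate 1 (0.90, adjusted p = 0.034) and when only the groups compared were fitted (0.64, adjusted p = 0.0294).

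Rarb (ENSMUSG00000017491, chr14:16430839-16819156, minus strand), a receptor whose gene is itself a well-known target of retinoic acid, was higher in XY KO than in XY control at both stages. At E12.5 it was at 12.45, 10.8 and 16.9 CPM in XY KO and 6.27, 4.64 and 6.34 CPM in XY control, a 2.35-fold difference (1.23, SE 0.28, adjusted p = 0.00591). XX control, at 10.9, 6.31 and 11.501 CPM, overlapped XY control (0.74, SE 0.29, adjusted p = 0.0779), and XX KO was at 10.1, 19.3 and 13.5 CPM. The difference between the controls lay near the threshold and passed under 5 alternatives, among them without XX control replicate 2 (0.97, adjusted p = 0.0254) and without XX KO replicate 2 (0.74, adjusted p = 0.048). At E11.5 it was at 75.6, 76.8 and 68 CPM in XY KO, above the 52.4, 57.9 and 57.5 CPM in XY control (0.39, SE 0.10, adjusted p = 0.0226). The E11.5 call was lost without XY control replicate 1 or without XY KO replicate 1 or 2 (adjusted p = 0.0828, 0.0811 and 0.0835). Neither interaction passed (E11.5 0.44, SE 0.15, adjusted p = 0.255, and E12.5 0.65, SE 0.39, adjusted p = 0.318). Exons of Rarb overlap those of Top2b on the opposite strand. The strand setting of the counting is not given, so the 2 genes' reads may be mixed. Top2b was not called in XY KO minus XY control (E11.5 0.24, SE 0.13, adjusted p = 0.225, and E12.5 0.19, SE 0.14, adjusted p = 0.408).

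**Figure D4:**
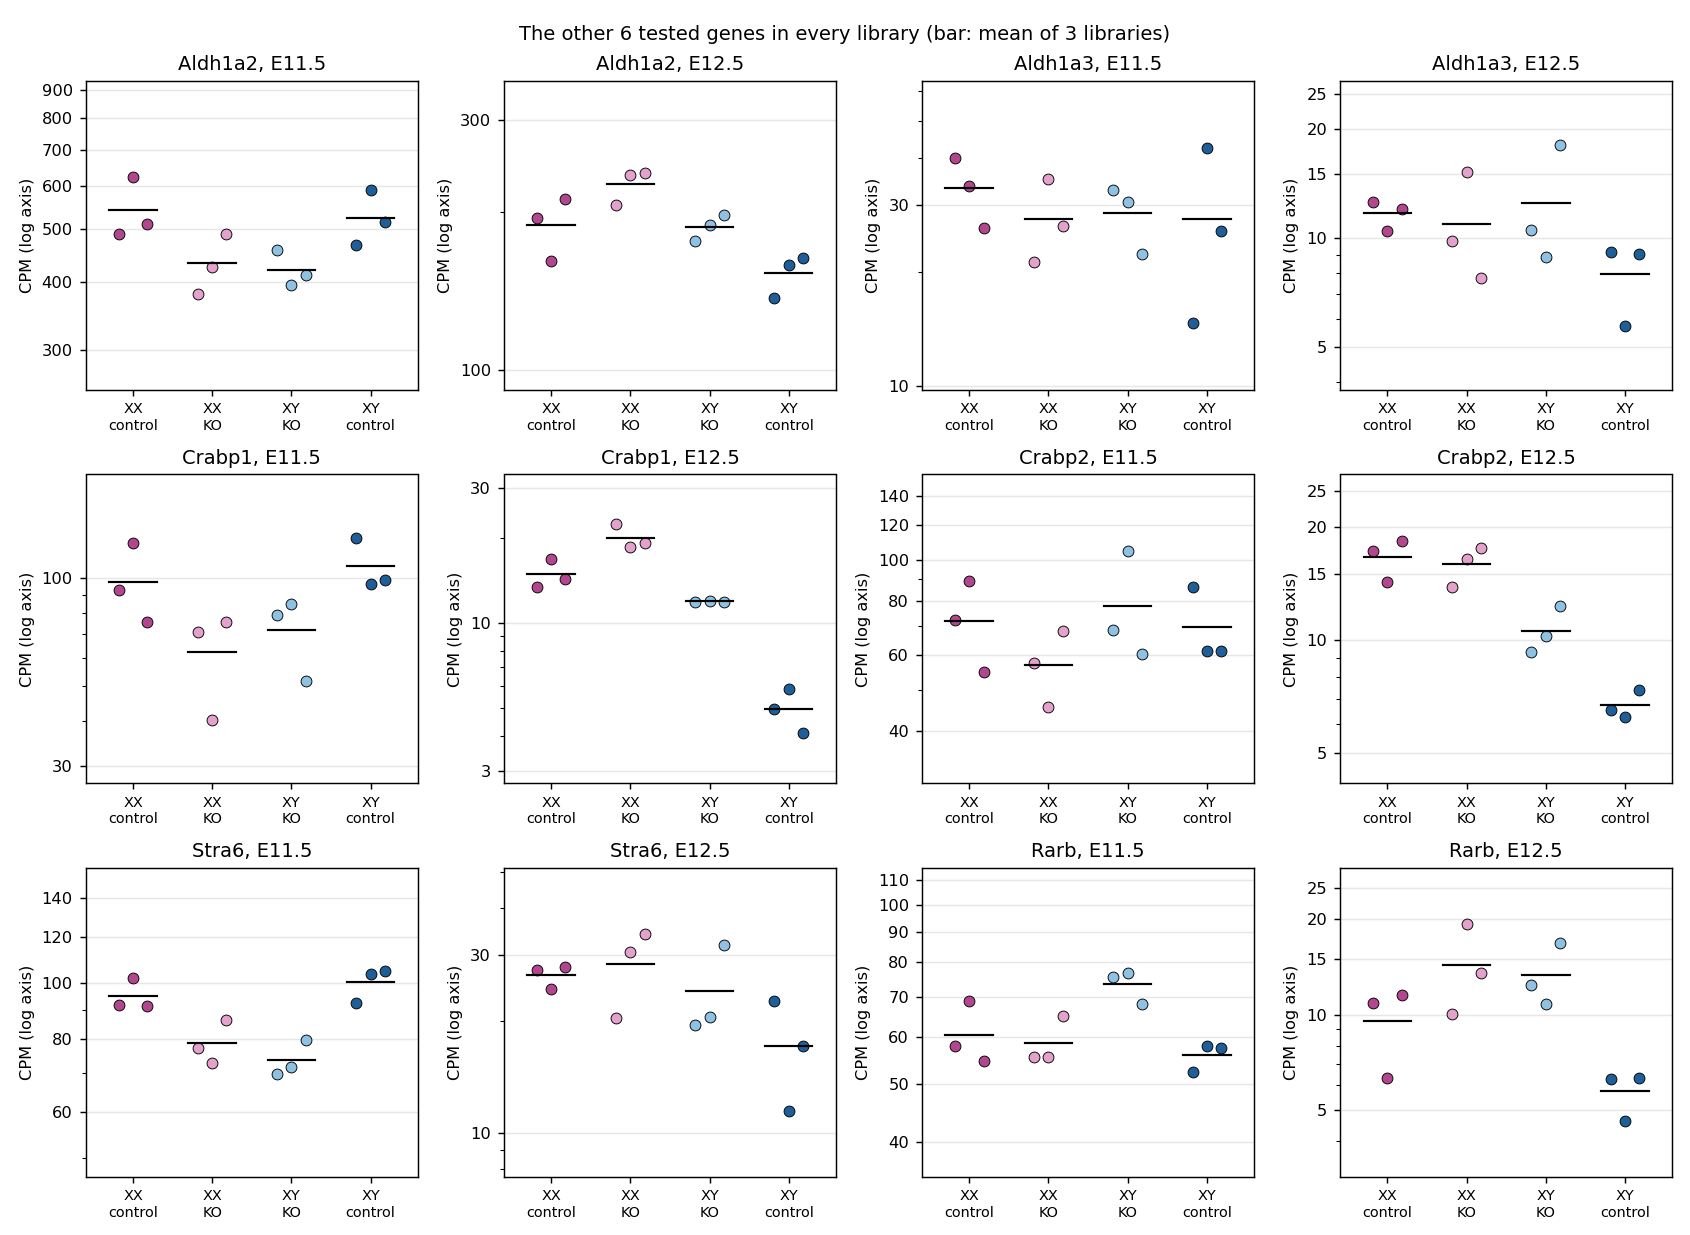
CPM (y axes, logarithmic, each panel with its own range) of Aldh1a2, Aldh1a3, Crabp1, Crabp2, Stra6 and Rarb in each library (points) of the 4 genotypes (x axis) at E11.5 and E12.5; the bar is the mean of 3 libraries. At E12.5 Crabp1 is lowest in XY control (4.08 to 5.85 CPM), then XY KO (11.8 to 12 CPM), then the XX genotypes, with no overlap, while Aldh1a3 overlaps between most genotypes.

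Across the 12 libraries of E12.5, the genes most like each called gene were sought by Pearson's r of log2(CPM + 2) among 13651 others with a mean of at least 1 CPM. The points share the same large gap between XY control and the rest, so r is given as a description. Cyp26b1 was most like Gem (0.993), Lefty2 (0.993) and Sox9 (0.992), the last a transcription factor of Sertoli cells, the supporting cells of the testis. Aldh1a1 was most like Hsd3b1 (0.987), a steroidogenic enzyme of Leydig cells, Prss35 (0.981) and Sdc4 (0.976). Crabp1 was most like Lancl1 (0.968), Ppp1r3g (0.966) and B3gnt7 (0.958), and Crabp2 most like Slc16a13 (0.991), Smtnl1 (0.96) and Ccdc116 (0.956). Rarb was most like Meis1 (0.968), Hoxa2 (0.965) and Fap (0.959), with Meis1 at 157.6 CPM in XY KO and 84.7 CPM in XY control on average.

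Markers of several cell types moved with these genes at E12.5. The lists were chosen with earlier results of these data known. They include genes that the paper reports as lower (Ptgds, Sox8, Amh, Dhh) or higher (Foxl2, Wnt4, Rspo1, Bmp2, Fst) in XY mutant gonads at E12.5. Counts of called markers are thus descriptions and no test. Of all tested genes, 10.3% were called in each direction in XY KO against XY control. The summed level of 10 Sertoli markers was 1655 to 2260 CPM in XY control and 37.5 to 81.5 CPM in the other genotypes, and all 10 were lower in XY KO. The sum of 6 fetal Leydig cell markers was 877 to 1848 CPM in XY control and 47.1 to 65.1 CPM elsewhere, with all 6 lower in XY KO. The sum of 8 markers of pre-granulosa cells, the supporting cells of the ovary, was 405 to 450 CPM in XY control and 1120 to 1615 CPM elsewhere, with all 8 higher in XY KO. In bulk tissue, fewer cells of a type and less RNA per cell cannot be told apart. At E11.5 the Sertoli sum was 123 to 276 CPM in XY control and 41.2 to 60.2 CPM elsewhere. Markers of mesonephric tubules and duct, a tissue that the E12.5 samples should lack, summed to 105 to 136 CPM in XY control and 325 to 459 CPM in the other 3 genotypes at E12.5, with 8 of 10 higher and 1 lower in XY KO than in XY control. None of the 10 was at 0 in any group. Emx2 is in both this list and that of the somatic gonad, so the sum does not measure mesonephros alone. Crabp1, Crabp2 and Rarb, the 3 genes that were higher in XY KO at E12.5, differed between XY control and XY KO in the direction of the mesonephric and pre-granulosa sums. Between XY KO and XX control the mesonephric sums overlapped (325 to 372 and 331 to 407 CPM). The pre-granulosa sums (1120 to 1197 and 1329 to 1615 CPM), Crabp1 and Crabp2 did not overlap there. Between XX KO and XX control both sums and Crabp2 overlapped, and Crabp1 did not. Rarb in XX control overlapped XY control, and neither sum did. The part of either sum in the differences of these genes was not tested. The sum of 6 interstitial progenitor markers was 1742 to 1967 CPM in XY control and 688 to 1506 CPM in the other genotypes at E12.5, with 4 of 6 lower in XY KO, 5 lower in XX control, and 4 higher in XX KO than in XX control. XY KO had 701.8 to 787 CPM of 6 endothelial markers against 515 to 661 CPM in XY control, with 2 called, and of 6 macrophage and 5 tested erythroid markers edgeR called 0 in that comparison.

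The wider pathway was described with 38 further genes of retinol transport, retinal formation, receptors and coregulators. At E11.5, 25 of them could be tested, of which 1 was higher and 2 were lower in XY KO than in XY control, with 12.7% of all tested genes called. Rdh11, a retinal reductase, was higher (0.32, SE 0.10, adjusted p = 0.0491), and the receptors Rara (-0.37, SE 0.09, adjusted p = 0.0145) and Rarg (-0.39, SE 0.12, adjusted p = 0.0451) were lower, opposite to Rarb. These calls lay near the threshold. Rdh11 passed in 5 and Rarg in 6 of 18 alternatives, with adjusted p of up to 0.131 (without XY KO replicate 3) and 0.147 (without XY KO replicate 1). Rara passed in 16 of 18, and not without XY KO replicate 3 (0.0644) or when only the groups compared were fitted (0.0802). The other 3 pairwise comparisons called 0 of the 25 at E11.5 with edgeR. Unadjusted p was below 0.05 for 2 of them between the controls (17.9% of all tested genes), 2 between XX KO and XX control (15.7%) and 5 between XX KO and XY KO (16.1%), and DESeq2 called 1, 0 and 0. The median log2 difference over the 25 in XY KO minus XY control was -0.11, beside -0.03 over all tested genes.

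At E12.5, 27 of the 38 were tested. Of these, 1 was higher and 5 lower in XY KO than in XY control, and 1 was higher and 5 lower in XX control than in XY control, beside 20.6% and 23.8% of all tested genes called, so the share of the list was near that of all genes. Adh1, an alcohol dehydrogenase that can oxidise retinol to retinal, showed a pattern close to that of Cyp26b1: it was at 49.2 to 107 CPM in XY control and at 2.51 to 3.44 CPM in XY KO (-4.62, SE 0.31, adjusted p = 1.52e-07), and at 1.77 to 3.92 CPM in XX control (-4.68, SE 0.32, adjusted p = 8.45e-08). Fabp5, a fatty acid binding protein that can also carry retinoic acid, was at 37.4 to 56.2 CPM in XY control and 23.2 to 28.6 CPM in XY KO (-0.88, SE 0.19, adjusted p = 0.0036), and was lower in XX control too (-1.30, SE 0.19, adjusted p = 0.000146). Rdh1, a retinol dehydrogenase at 5 to 40 counts in these 2 groups, was lower in XY KO (-1.24, SE 0.35, adjusted p = 0.0205), but not without XY KO replicate 2 (adjusted p = 0.0894) or replicate 3 (0.0598). Adh5 and Cyp1b1 were also lower in XY KO and in XX control. Rdh10, the main retinol dehydrogenase of the embryo, was higher in XY KO. In XY KO minus XY control the calls of Adh5 and Rdh10 held in 17 and that of Cyp1b1 in 16 of 18 alternatives, and in XX control minus XY control that of Adh5 in 14 of 18. The median over the 27 was -0.11 in XY KO minus XY control, beside -0.01 over all tested genes. XX KO differed from XX control in 0 of the 27 and from XY KO in 0, with 5 and 8 at an unadjusted p below 0.05 in edgeR (23.6% and 19.2% of all tested genes) and 0 called by DESeq2 in either.

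Genes known to respond to retinoic acid were described last, 16 in all, of which 14 were found in the tables and 13 tested at each stage. At E12.5, 6 of the 13 were higher and 0 lower in XY KO than in XY control, and 6 were higher and 2 lower in XX control than in XY control. Of all tested genes, 10.3% were called in each direction in the former, and 11.4% higher and 12.4% lower in the latter. The median log2 difference was 0.62 and 0.95 in these comparisons, beside -0.01 and 0.01 over all tested genes. The 7 tested genes listed for germ cell meiosis had medians of 2.33 and 3.68, with 4 and 5 higher and 0 lower. The 6 listed as embryo targets had medians of 0.37 and -0.04. Of those 6, 2 were higher and 0 lower in XY KO, and 1 was higher and 2 lower in XX control. In XX KO minus XX control 1 of the 13 was higher (Tgm2), and in XX KO minus XY KO 0 passed (2 at an unadjusted p below 0.05 in edgeR, 0 called by DESeq2). Stra8, which germ cells need to start meiosis, had 3, 5 and 1 counts in XY control and 358, 324 and 186 counts in XY KO. In CPM it was at 20.9, 21.9 and 5.08 in XY KO, 0.877, 44.3 and 25.4 in XX control and 25.8, 16.6 and 22.4 in XX KO. All XY control libraries were below all others, and XX control replicate 1 stood far below the other 2 of its group. The fitted difference of XY KO minus XY control was 6.61 (SE 1.39, adjusted p = 0.00469), a size that rests on few counts in XY control. Rec8, a cohesin of meiotic chromosomes, was at 2.87, 6.76 and 4.52 CPM in XY control and at 47.6, 73.1 and 61.9 CPM in XY KO, 12.8-fold higher (3.68, SE 0.26, adjusted p = 2.24e-07). XX control and XX KO were at 64.8 to 90.9 CPM.

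The homeobox genes Msx1 and Msx2 followed the same order. Msx1 was at 0.434 to 1.69 CPM in XY control and 3.04 to 17.2 CPM in XY KO (3.23, SE 0.57, adjusted p = 0.000857), and Msx2 at 0.914 to 2.35 and 6.72 to 9.58 CPM (2.33, SE 0.30, adjusted p = 5.95e-05). Cdx1 (1.31, SE 0.37, adjusted p = 0.0213) and Meis1 (0.90, SE 0.18, adjusted p = 0.00193) were also higher, but the Cdx1 call was lost without XY control replicate 3 (adjusted p = 0.0662) or XY KO replicate 2 (0.0664). Sycp3, of the synaptonemal complex, was higher in XX control than in XY control (1.17, SE 0.28, adjusted p = 0.0066) and Nr2f2, an interstitial transcription factor, lower (-0.83, SE 0.19, adjusted p = 0.00485), as was the transglutaminase Tgm2 (-0.79, SE 0.21, adjusted p = 0.0147), whose call held in 15 of 18 alternatives (adjusted p of up to 0.0819, without XY control replicate 1). Of 8 germ cell markers 0 were higher and 2 lower in XY KO than in XY control, with sums of 657 to 805 CPM in XY KO and 842 to 1144 CPM in XY control. The germ cell list includes the pluripotency marker Pou5f1, so its sum is not a count of germ cells. The part of germ cell number in the differences of Stra8 and Rec8 was not tested. At E11.5, 0 of the 13 were called between XY KO and XY control (1 at an unadjusted p below 0.05 in edgeR, beside 28.9% of all tested genes, and 0 called by DESeq2), and 1 between XX KO and XX control, Msx2 (-0.92, SE 0.24, adjusted p = 0.0473). The Msx2 call held in 8 of 18 alternatives, with an adjusted p of up to 0.225 (without XX control replicate 3). Stra8 had at most 13 counts in any library at E11.5 and was not tested.

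**Figure D5:**
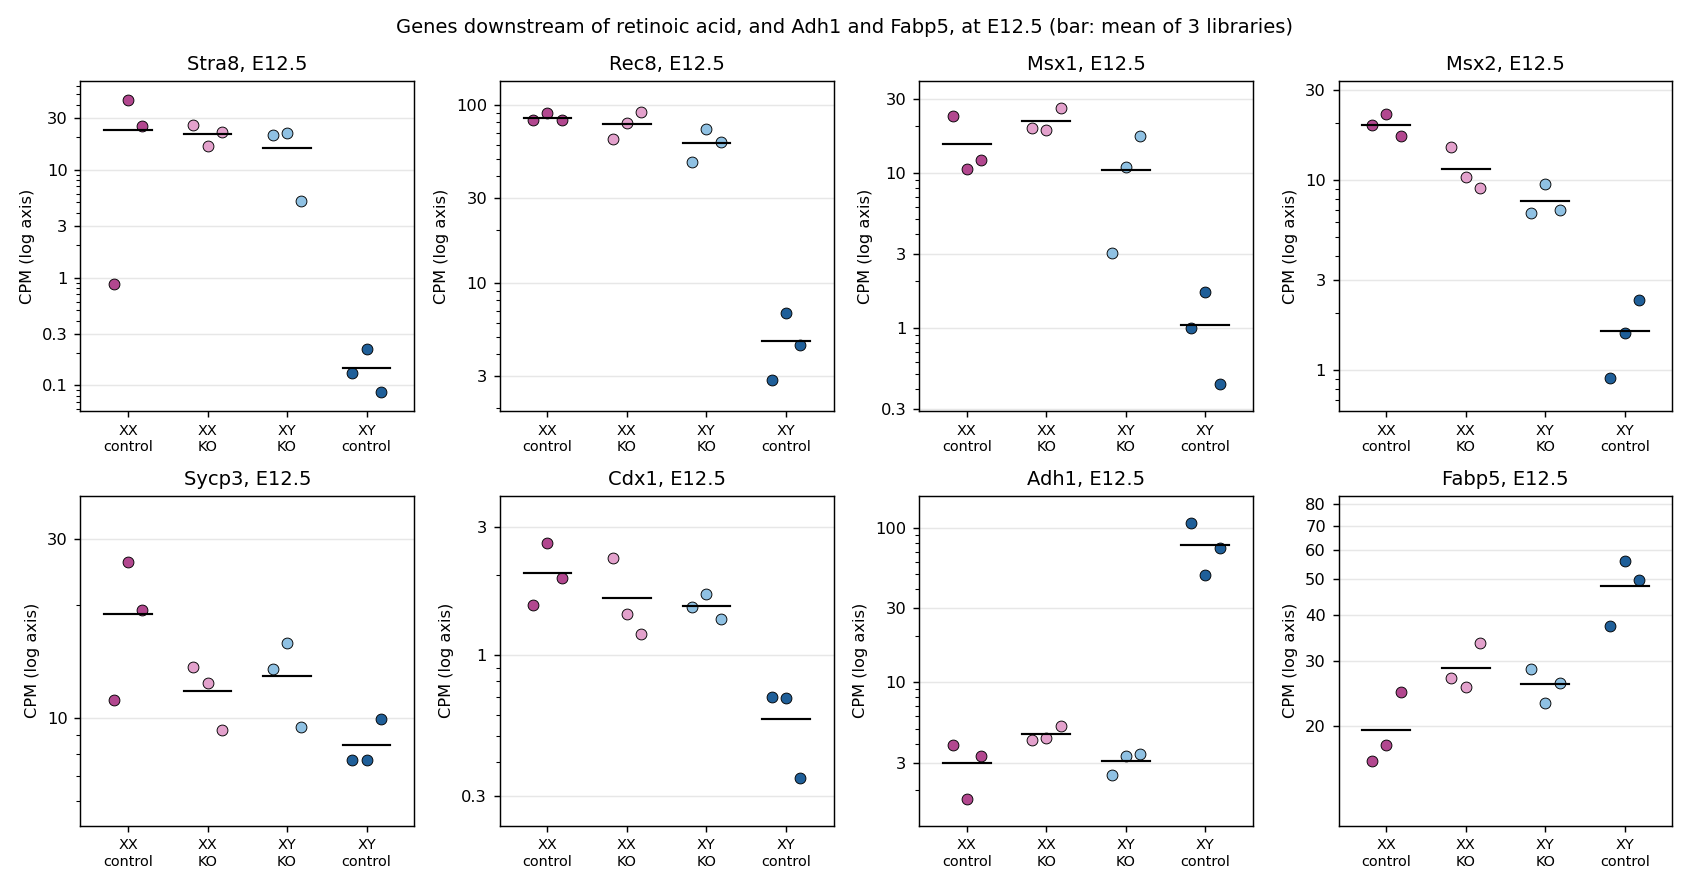
CPM (y axes, logarithmic, each panel with its own range) of Stra8, Rec8, Msx1, Msx2, Sycp3, Cdx1, Adh1 and Fabp5 in each library (points) of the 4 genotypes (x axis) at E12.5; the bar is the mean of 3 libraries. Rec8 lies at 2.87 to 6.76 CPM in XY control and at 47.6 to 90.9 CPM elsewhere, whereas Adh1 and Fabp5 are highest in XY control.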

How the data were processed

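RNA-seq of E11.5 gonad-mesonephros complexes and E12.5 gonads was analysed, 3 libraries per genotype and stage. RNA was isolated with RNeasy Micro, libraries were made with NEBNext Ultra II Directional (E11.5) or TruSeq stranded mRNA (E12.5), and sequenced on HiSeq4000. The values deposited by the authors are unnormalised counts per Ensembl gene. The submitters' processing notes name Subread, featureCounts, edgeR and mm10. The annotation release and the strand and multi-mapping settings are not given in the sources used here. A further 12 per-sample columns of the deposited tables were not used.

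Groups followed the sample labels. Each stage was fitted alone with edgeR 4.0.16 (limma 3.58.1, R 4.3.3): genes with at least 1 CPM in at least 2 of 12 libraries, TMM factors, robust quasi-likelihood with 1 coefficient per genotype, and Benjamini-Hochberg adjustment over all tested genes at 0.05. The script was tested on simulated counts. Standard errors are the log2 difference divided by the root of the F statistic. Lengths and positions are from GENCODE M21 (GRCm38), which held 21579 of the 21699 gene IDs. MicroRNA and promoter sequences are from RefSeq. The 3′ UTR sequences are from GENCODE M21, with the longest 3′ UTR among the basic protein-coding transcripts of each gene. The pseudocount of 2 CPM served for likeness only.

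All 9 genes were reported, other pathway and target genes were counted, and the up to 12 with the largest log2 difference per stage were named if called in XY KO against XY control or between the controls at E12.5, or in any comparison at E11.5. Other genes named (Aldh1a7, Top2b, Adh5, Cyp1b1, Rdh10) were added for read sharing or as members of a small count, after their values were seen. The 9 genes and the lists of pathway genes, targets and markers of 10 cell types were chosen with earlier results of these data known. Some items are not reported here. The labels do not say whether libraries came from separate litters, so p-values measure the spread between these libraries. No replicate pair agreed within sampling noise (chi-square per gene 7.23 to 84.7). Alternatives were RLE factors, library size only, DESeq2 1.42.0, no filter, a replicate block, only the groups compared, and leaving out each library.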

Additional observations from a re-analysis of the deposited data

Results flagged for a closer look

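For 13 results the KO effect differed between XY and XX gonads by edgeR's interaction test, computed as the effect in XY minus that in XX gonads on the log2 scale, each with 3 libraries per group. At E12.5 they were 3 of 8 tested genes of the set, 2 of 27 further pathway genes and 7 of 13 targets, beside 12.9% of all tested genes. At E11.5 they were 1 of 8, 0 of 25 and 0 of 13, beside 0.0352%.

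Among the metabolic and binding genes, the difference was -1.13 for Cyp26b1 at E11.5 (adjusted p = 0.0215). At E12.5 it was -4.37 for Cyp26b1 (adjusted p = 7.91e-06), -3.87 for Aldh1a1 (4.61e-05), 0.82 for Crabp1 (0.0285), -5.24 for the alcohol dehydrogenase Adh1 (2.63e-06) and -1.44 for the binding protein Fabp5 (0.00212). Among the target genes at E12.5 it was 6.74 for Stra8 (adjusted p = 0.0187), 3.79 for Rec8 (4.98e-06), 3.11 for Msx2 (8.93e-05), 2.74 for Msx1 (0.0222), 1.62 for Cdx1 (0.0433), 1.30 for Sycp3 (0.0424) and -1.02 for Tgm2 (0.0386).

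Of these, 6 were called under all 17 alternatives: Cyp26b1 at E12.5, Aldh1a1, Adh1, Fabp5, Rec8 and Msx2. The others were called under 6 (Cdx1), 8 (Cyp26b1 at E11.5), 9 (Sycp3), 10 (Crabp1, Stra8 and Tgm2) or 11 (Msx1) of the 17.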

How the results depend on the processing

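Of 178 recomputed counts of called genes among the 9, 158 stayed within 1.5 times and 20 moved. DESeq2 called 2 in place of 1 between the E11.5 controls, 2 in place of 1 in the E11.5 interaction, and 1 in place of 0 between XX KO and XY KO at each stage. Leaving out 1 library gave 0 to 2 for the E11.5 controls and for the E11.5 interaction, and 0 to 1 at E12.5 for XX KO against XX control and against XY KO, in both cases through XX KO replicate 2.

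Calls of single genes stayed in 297 recomputed values and were lost in 23, and uncalled values passed in 21. No called gene of the 9 reversed. Uncalled values near 0 reversed in 43 cases. With library size only, Aldh1a2 in XX KO minus XY KO at E11.5 was -0.0054. Leaving out 1 library, the E11.5 ranges were -0.28 to 0.093 (Aldh1a1) and -0.14 to 0.058 (Rarb) in XX KO minus XX control. In XX KO minus XY KO they were -0.071 to 0.12 (Aldh1a2), -0.26 to 0.11 (Aldh1a3) and -0.41 to 0.026 (Crabp1). Between the controls they were -0.065 to 0.14 (Aldh1a2), -0.042 to 0.72 (Aldh1a3), -0.37 to 0.011 (Crabp1) and -0.13 to 0.24 (Crabp2). In XY KO minus XY control they were -0.26 to 0.50 (Aldh1a3) and -0.11 to 0.35 (Crabp2), and in the interaction -0.10 to 0.13 (Aldh1a2) and -0.17 to 0.28 (Crabp1). At E12.5 they were -0.41 to 0.11 (Aldh1a3), -0.16 to 0.030 (Crabp2) and -0.053 to 0.29 (Stra6) in XX KO minus XX control, -0.52 to 0.19 (Aldh1a3) and -0.19 to 0.31 (Rarb) in XX KO minus XY KO, and -0.079 to 0.13 (Aldh1a2) in the interaction.

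The replicate numbers were not used as pairs in the main fit. Same-numbered libraries of different groups correlated at -0.30 to 0.45 at E11.5 and -0.51 to 0.39 at E12.5. For different-numbered libraries the ranges were -0.38 to 0.38 and -0.48 to 0.51. With 3 libraries per group, these ranges cannot exclude litters or batches shared between groups. The replicate block gave 0 in place of 1 for the E11.5 interaction (Cyp26b1, adjusted p = 0.0594). It moved no other count of the 9 genes by over 1.5 times.

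Over all genes, DESeq2 called 439 in place of 126 between the E11.5 controls, 778 in place of 465 (E11.5) and 1456 in place of 755 (E12.5) for XX KO against XX control, 301 in place of 12 and 65 in place of 22 for XX KO against XY KO, and 141 in place of 5 in the E11.5 interaction, where no filter gave 14. Fitting only the groups compared gave 779 in place of 1804 for XY KO against XY control at E11.5, and at E12.5 296 in place of 755 and 11 in place of 22. Leaving out 1 library moved these counts furthest. At E11.5 they ranged from 56 (without XX control replicate 3) to 2495 (without XY control replicate 2) between the controls, from 814 (without XY KO replicate 1) to 2891 (without XY control replicate 2) for XY KO against XY control, from 142 (without XX control replicate 2) to 664 for XX KO against XX control, from 8 to 202 for XX KO against XY KO and from 2 to 228 in the interaction, the last 3 highest values also without XY control replicate 2. At E12.5 they ranged from 35 (without XX control replicate 1) to 1670 for XX KO against XX control and from 13 to 1828 for XX KO against XY KO, both highest without XX KO replicate 2, and stayed within 1.5 times in the other 3 comparisons. Library size only changed the higher and lower calls from 836 and 968 to 662 and 1145 (XY KO against XY control, E11.5), from 258 and 207 to 176 and 245 (XX KO against XX control, E11.5) and from 1634 and 1779 to 1995 and 1534 (controls, E12.5). The causes were not tested. Low counts limit Cyp26a1, Stra8 and Rdh1.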
